A study of Mus musculus with 6 samples.

Results

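Glucose is burned through a chain of enzymes whose mRNAs were examined here for summits of ac4C antibody pull-down. The set comprised 47 genes of glycolysis, the pentose phosphate pathway and the tricarboxylic acid (TCA) cycle, together with pyruvate dehydrogenase, pyruvate carboxylase and a few lactate and glucose transporters. Members were found by their gene symbol in the authors' list of summits. Of the 47 genes, 14 had at least 1 listed summit and 33 had none. The 14 genes held 20 of the 1876 summits of the list, on 18 transcripts.

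N4-acetylcytidine (ac4C) is an acetylated cytidine written by the acetyltransferase Nat10. In acRIP-seq an antibody against it pulls down RNA fragments for sequencing. The cells were wild-type 32D, an established mouse bone marrow line that depends on interleukin 3, here given at 10 ng/mL. There were 6 libraries of polyadenylated RNA in 3 groups, with 2 libraries for the ac4C antibody, 2 for IgG and 2 for input RNA. All came from wild-type cells, the labels tell the groups apart by the antibody step, and whether the pairs of libraries are separate cultures is not labelled. The values were 1 call, whose entry names read as the merged ac4C libraries, so they have no replicate error and no depth per library is known.

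Glycolysis splits glucose into pyruvate in the cytosol. Its hexokinase, phosphofructokinase and pyruvate kinase steps are irreversible in cells and carry most of its control, while the steps between them run near equilibrium. Pyruvate is either reduced to lactate and exported, or enters mitochondria, where pyruvate dehydrogenase turns it into acetyl-CoA for the TCA cycle. The pentose phosphate pathway branches off at glucose 6-phosphate and yields NADPH in its oxidative arm and ribose for nucleotides. Growing blood cell lines draw on all of these routes.

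A summit's fold enrichment is the ratio given by the authors' peak caller. All folds of the list were whole multiples of 0.475, within 0.00104 of a step, and each follows from the number of fragments stacked at the summit (the pileup) and from 1 constant background of 1.11 fragments, with 1 added to the pileup and to that background before they are divided. The fold is thus a measure of the height of the pull-down, with no term for how abundant the mRNA is and none for input or IgG. The 95% interval beside a fold is the exact Poisson interval of its pileup. It covers counting error only, since fragments copied by PCR are not independent molecules. A listed summit alone does not show ac4C. A gene without one can be weakly expressed, unmodified or left out by a filter of the authors, for which no rule is stated. The peak numbers in the authors' summit names ran up to 33651, and only 1824 numbers were in the list. An unlisted gene may therefore still have had a called peak.

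The share of members with a listed summit was 29.8% (14 of 47; exact Clopper-Pearson 95% interval 17.3% to 44.9%). Of the 21900 protein-coding genes in the RefSeq gene table, 6.71% had one. That background includes genes that 32D cells may not express, and the list holds no expression values. The gap between the shares is therefore a description of the list. The members were also proposed with these results known. By step, the share varied widely, although each step holds few genes.

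In glycolysis, 4 of the 7 genes of the irreversible steps had a summit, namely Hk2, Pfkl, Pfkp and Pkm, so each of those 3 steps was represented. Of the 8 genes of the reversible steps, only Tpi1 was listed, and Gpi1, Aldoa, Aldoc, Gapdh, Pgk1, Pgam1 and Eno1 were not. The genes were sorted into these steps after their values were seen, and the 95% intervals of both shares, 18.4% to 90.1% and 0.316% to 52.7%, overlapped. Among the 5 genes of lactate and transport, Ldha and Slc16a1 had summits. In the oxidative arm of the pentose phosphate pathway 2 of 3 genes, Pgls and Pgd, were listed, and in the non-oxidative arm none of 3.

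On the mitochondrial side, 3 of 12 TCA cycle genes (Idh2, Ogdh and Fh1) and 1 of 4 pyruvate dehydrogenase genes (Pdha1) had a summit, as did Pcx. None of the 4 cytosolic relatives was listed, namely Aco1, Idh1, Mdh1 and the citrate-cleaving enzyme gene Acly.

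**Figure D1:**
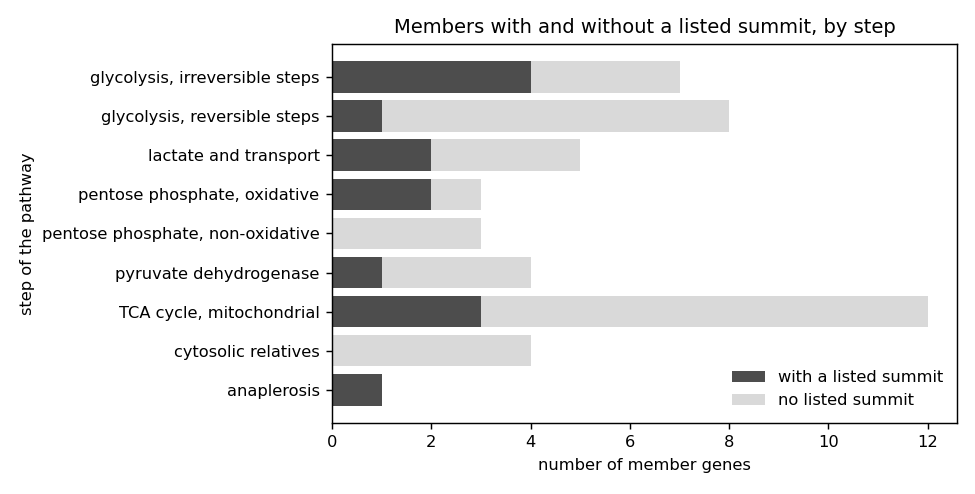
Bars count the member genes of each step of the pathways; the dark part is the number with at least 1 listed summit and the light part the number without. Of the irreversible steps of glycolysis 4 of 7 genes were listed, and of its reversible steps 1 of 8.

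Isozymes of the same step differed in whether they were listed. Hk2, a hexokinase induced in proliferating cells, was listed, and Hk1 and Hk3 were not. Of the phosphofructokinase genes the liver-type Pfkl and platelet-type Pfkp had summits and the muscle-type Pfkm had none. Ldha was listed without Ldhb, the lactate transporter gene Slc16a1 without Slc16a3, and the mitochondrial NADP-dependent Idh2 without the cytosolic Idh1 or the NAD-dependent subunit genes Idh3a, Idh3b and Idh3g. No gene was listed of the aldolase pair Aldoa and Aldoc, the malate dehydrogenase pair Mdh1 and Mdh2, or the succinyl-CoA ligase subunit pair Suclg2 and Sucla2. The list does not tell whether the unlisted isozymes are expressed in these cells.

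Pkm (ENSMUSG00000032294) encodes pyruvate kinase, which makes pyruvate and ATP in the last step of glycolysis. It had the tallest summit of the 843 in 3' untranslated regions and ranked 2 of all 1485 listed genes. That summit lay at nt 2287 of ENSMUST00000034834 with a pileup of 417 fragments, a fold of 198 (95% interval 180 to 218) and a −log10 q of 894. The next member by fold, Slc16a1, was 4.75 times lower, and the counting intervals of the pair did not overlap. It was the only step in the members' order, taken between genes next to each other, where they did not.

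A second Pkm summit lay in coding sequence, at nt 456 of another transcript, ENSMUST00000217353. Its pileup was 29 and its fold 14.2 (9.69 to 20.2), 13.9 times below that of the 3' untranslated summit. That fold places it among the ordinary summits of the list, whose median was 11.4. The summits were on different transcripts, and reads in exons that isoforms share can be split between them, so their ratio is not a ratio along 1 mRNA.

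The authors' summit names hold more on Pkm. A peak with several summits carries letters, and in all 52 pairs of adjacent listed summits of 1 peak over the whole list, the later letter lay further 3'. The tall Pkm summit had the letter f, so at least 5 further summits were called 5' of it in the same peak and are not among those analysed here. Only 16 of the 1876 listed summits had the letter f or a later one. The coding summit had the letter b, which adds 1 more unlisted summit.

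Tpi1 (ENSMUSG00000023456) encodes triosephosphate isomerase, which interconverts the triose phosphates made by aldolase. Its single listed summit lay in coding sequence at nt 735 of ENSMUST00000239432. The pileup was 46 and the fold 22.3 (16.5 to 29.6), with a −log10 q of 55.7. It ranked 335 of 1485 genes, with 76.9% of listed genes lower. Its letter was c, so the peak held at least 2 other summits 5' of it that are not listed.

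Ldha (ENSMUSG00000063229) encodes the lactate dehydrogenase subunit that favours the reduction of pyruvate to lactate. It had 4 listed summits on 3 transcripts, the most of any member, all in coding sequence and all within the first 325 nt. On ENSMUST00000210467 the summit at nt 325 had a pileup of 34 and a fold of 16.6 (11.7 to 23.0). On ENSMUST00000132157 the summit at nt 313 had a fold of 12.3 (8.15 to 18.0).

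The other Ldha summits both lay on ENSMUST00000210968, at nt 115 with a fold of 10.9 (7.02 to 16.3) and at nt 216 with 10.4 (6.65 to 15.7). All 4 intervals overlapped each other, so no Ldha summit stood above the rest beyond counting error. The highest was 1.59 times the lowest. Positions are counted from the start of each isoform, and how the isoforms align was not examined. Summits of different isoforms, such as those at nt 313 and nt 325, may therefore be the same site or not. As for Pkm, reads in exons that isoforms share can be split between them, so the fold of each summit need not be that of the gene. The gene table names 3 pseudogenes of Ldha, whose reads cannot be told apart from those of the gene where the sequences match.

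**Figure D2:**
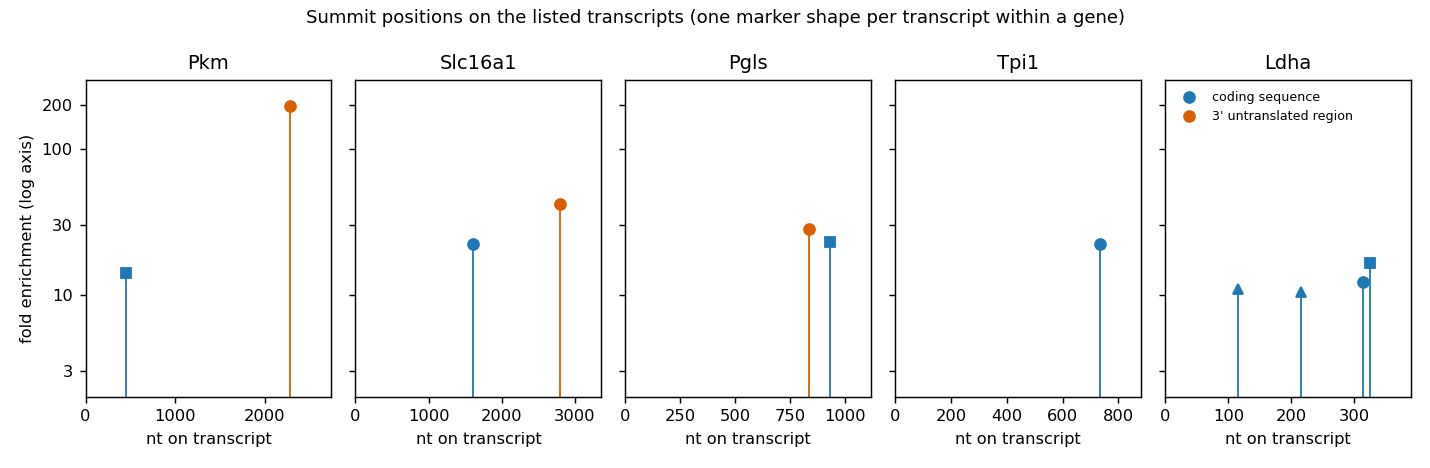
Each panel shows 1 gene, with summit position on its transcript in nt (x axis) against fold enrichment (y axis, log scale); colour gives the region and marker shape the transcript. The 3' untranslated summit of Pkm reaches 198, while the 4 Ldha summits sit between 10.4 and 16.6, within the first 325 nt of their transcripts.

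The hexokinase and phosphofructokinase genes had lower summits than the 3' untranslated summit of Pkm. Hk2, which traps glucose in the cell as glucose 6-phosphate, had a coding summit at nt 2559 of ENSMUST00000000642 with a pileup of 11 and a fold of 5.70 (3.08 to 9.82). Pfkl had a summit in its 3' untranslated region, at nt 2612 of ENSMUST00000020522, with a pileup of 47 and a fold of 22.8 (16.9 to 30.1). Its paralog Pfkp had a coding summit at nt 1179 of ENSMUST00000021614 with a fold of 9.02 (5.54 to 14.0). The interval of Pfkl lay above that of Pfkp, and both enzymes catalyse the same step.

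Slc16a1 encodes the monocarboxylate transporter that carries lactate and pyruvate across the plasma membrane. It was the only member with listed summits in 2 regions of 1 transcript, ENSMUST00000046212. The 3' untranslated summit at nt 2800 had a pileup of 87 and a fold of 41.8 (33.6 to 51.4). The coding summit at nt 1608 had a pileup of 46 and a fold of 22.3 (16.5 to 29.6). The former was 1.87 times higher, with intervals that did not overlap. Here both sites are listed on the same isoform, but whether other isoforms share their exons was not examined. The coding summit had the letter b, so its peak held at least 1 other summit that is not listed.

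The listed genes of the oxidative arm of the pentose phosphate pathway came next in fold after Pkm and Slc16a1. Pgd, which encodes the dehydrogenase that releases carbon dioxide and NADPH, had a coding summit at nt 1215 of ENSMUST00000084124 with a pileup of 60 and a fold of 29.0 (22.2 to 37.1). Pgls, the gene of the lactonase that acts between the NADPH-producing steps, had a 3' untranslated summit at nt 836 of ENSMUST00000034264 with a fold of 28.5 (21.8 to 36.6). A further Pgls summit at nt 934 of ENSMUST00000143441 was assigned to coding sequence, with a fold of 23.3 (17.3 to 30.7). The Pgls summits were on different isoforms and their counting intervals overlapped. Their position numbers were 98 nt apart, and how the isoforms align was not examined, so they may be the same site or not. G6pdx, which encodes the first and rate-setting enzyme of this arm, was not listed, nor were Tkt, Taldo1 and Rpia of the non-oxidative arm.

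The mitochondrial enzymes spanned the middle and the low end. Fh1, the gene of fumarate hydratase, which turns fumarate into malate, had a coding summit at nt 792 of ENSMUST00000027810 with a pileup of 45 and a fold of 21.8 (16.1 to 29.1). Idh2, whose product makes 2-oxoglutarate and NADPH, had one at nt 340 of ENSMUST00000107384 with a fold of 12.3 (8.15 to 18.0). Ogdh, a subunit of the complex that oxidises 2-oxoglutarate, had the lowest fold of the members, 4.75 (2.43 to 8.58), from a pileup of 9 at nt 2912 of ENSMUST00000093350.

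At the entry of pyruvate, Pdha1 (a catalytic subunit of pyruvate dehydrogenase) and Pcx (pyruvate carboxylase, which makes oxaloacetate) both had a pileup of 11 and a fold of 5.70 (3.08 to 9.82). The Pdha1 summit was 3' untranslated, at nt 2145 of ENSMUST00000033662, and that of Pcx was coding, at nt 3214 of ENSMUST00000068004. Hk2 had the same pileup. These 3 genes and Ogdh were the members with the weakest calls, and the largest q among them was 5.06e-06. The subunit genes Pdhb, Dlat and Dld had no listed summit, and neither did Cs, Dlst, Suclg1, Suclg2, Sucla2 or Mdh2 of the cycle.

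**Figure D3:**
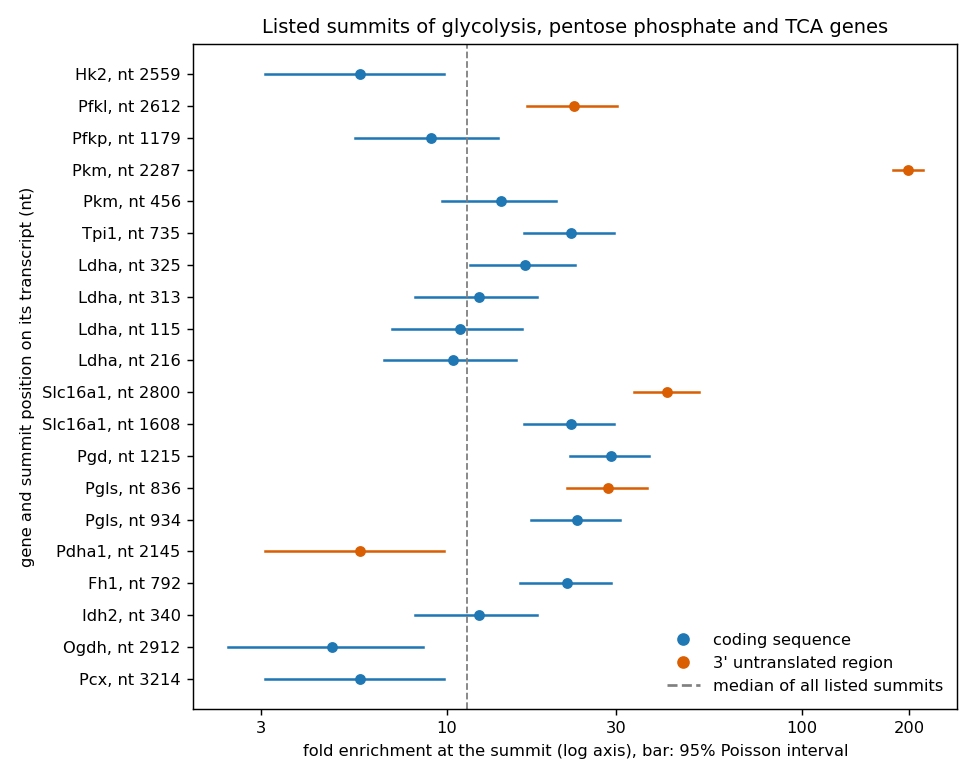
Points give the fold enrichment of the 20 listed summits (log axis) and bars the exact 95% Poisson interval of the pileup, ordered by pathway step and coloured by region; the dashed line is the median of all listed summits, 11.4. Pkm at nt 2287 lies apart at 198, and Ogdh at nt 2912 is lowest at 4.75.

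Across the 14 listed members the median of the highest fold per gene was 19.2 (quartiles 6.53 and 27.1). Over all 1485 listed genes it was 12.3 (quartiles 7.12 and 21.4). At or above the upper quartile were 7 members, as were 25.1% of all listed genes. They were Pkm, Slc16a1, Pgd, Pgls, Pfkl, Tpi1 and Fh1. Another 4, Hk2, Pdha1, Pcx and Ogdh, were below the lower quartile, as were 22.7% of all listed genes. Ldha, Idh2 and Pfkp made up the middle. The members therefore spread over most of the range of the list. Apart from the step between Pkm and Slc16a1, neighbours in the order had overlapping counting intervals.

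**Figure D4:**
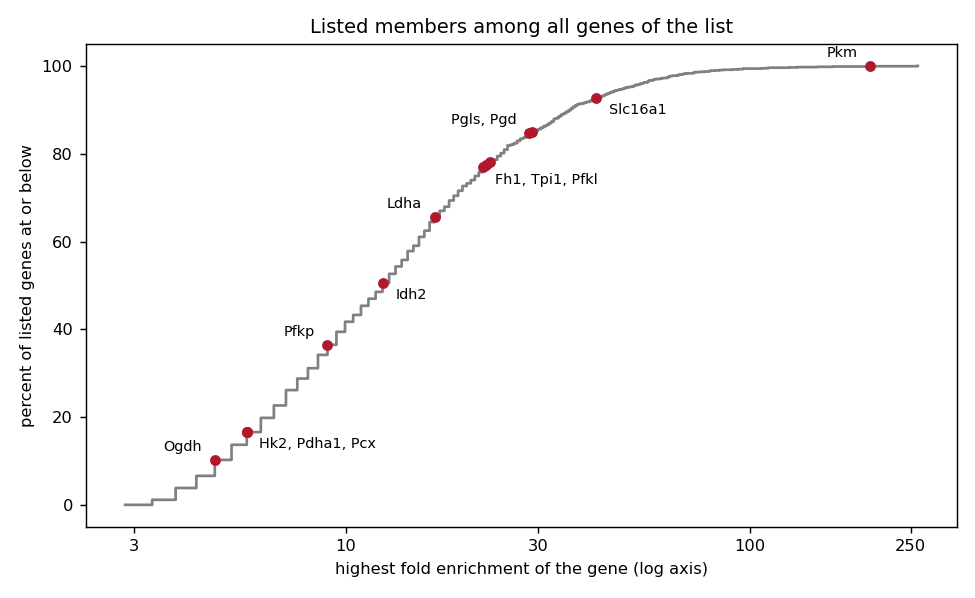
The grey line is the cumulative share of the 1485 listed genes (y axis, percent) by their highest fold (x axis, log scale), and red points mark the 14 listed members. The members run from Ogdh at 4.75 to Pkm at 198, which ranked 2.

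The members' summits lay mostly in coding sequence. Of 20 summits, 15 were coding, or 75.0% (exact Clopper-Pearson 95% interval 50.9% to 91.3%), against 48.0% of all summits. The 3' untranslated region held 5, or 25.0% (8.66% to 49.1%), against 44.9%, and the 5' untranslated region held none, against 7.09%. Summits of 1 gene are not independent, and Ldha alone gave 4 of the coding ones. With only the highest summit of each gene, 9 of 14 members were coding, or 64.3% (35.1% to 87.2%), where 45.9% of all listed genes were, so that interval includes the share of the list.

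The tallest summit of the members, in Pkm, and the next, in Slc16a1, were nevertheless 3' untranslated. The one after them, in Pgd, was coding. The median fold was 28.5 for the 5 summits in the 3' untranslated region (5.70 to 198) and 12.3 for the 15 coding summits (4.75 to 29.0). Over the whole list the medians were 12.3 and 10.4. In Pkm, Slc16a1 and Pgls, the members with listed summits in both regions, the 3' untranslated summit had the higher fold, beyond the counting intervals in Pkm and Slc16a1. Only the Slc16a1 pair lay on 1 transcript. The Pkm and Pgls pairs were on different isoforms, so they do not compare regions along 1 mRNA. The Pgls pair may also be 1 site assigned to both regions. Members with summits in more than 1 region were 3 of 14, or 21.4% (4.66% to 50.8%), an interval that includes the 8.69% of all listed genes. Coding summits of members lay between nt 115 and nt 3214 with a median of nt 792, and those in the 3' untranslated region between nt 836 and nt 2800. The lengths of the regions were not measured, so positions relative to a start or stop codon are not given.

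More than 1 summit was listed for 4 of 14 members (Ldha, Pkm, Slc16a1 and Pgls). That is 28.6% (8.39% to 58.1%), an interval that includes the 20.1% of listed genes. Letters, the sign of a peak with several summits, were carried by 11 of the members' 20 summits, or 55.0% (31.5% to 76.9%), against 26.5% in the list. Summits of 1 gene or 1 peak are not independent, and 1 Ldha peak alone gave 2 of the lettered ones. That interval is therefore likely too narrow. Lettered summits were taller in general, with a median fold of 22.8 against 9.49 for the others over the list and of 22.3 against 9.02 among members. The members' 10 lettered peaks imply at least 26 summits, of which 11 were listed and 15 were not. The counts of summits per member are therefore lower bounds on what the peak caller found.

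**Figure D5:**
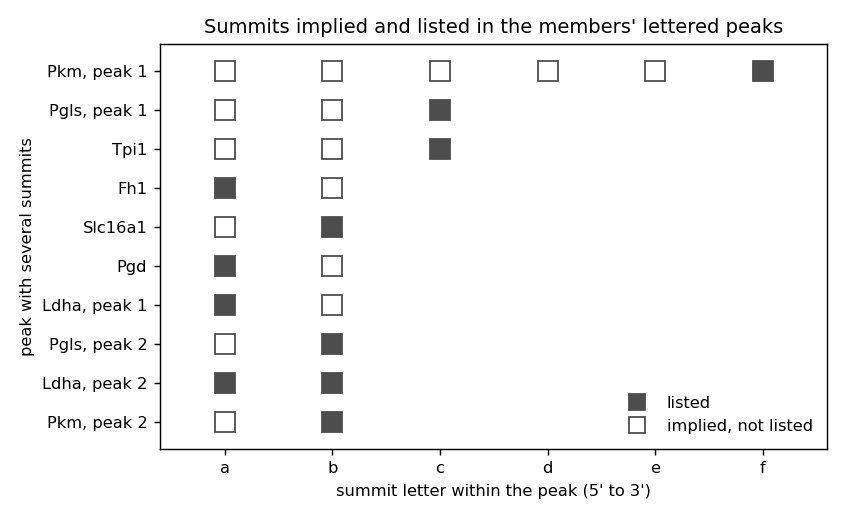
Each line is 1 of the members' 10 peaks with several summits, and squares are the summits its letters imply at least, filled where listed and open where not. The tall Pkm peak has 1 filled square after 5 open ones, and 1 Ldha peak has all of its implied summits listed.

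Further genes of the same pathways had fewer listed summits. The members were proposed with these results known and these genes are others of the pathways, so the contrast is only a description of the list. Of a list of 67 other pathway genes, many of them isozymes of other tissues, regulators or carriers, 4 had one, or 5.97%, near the 6.71% of protein-coding genes. These were 1 of 22 genes of glycolysis and transport, none of 8 of the pentose phosphate pathway and 3 of 37 of the TCA cycle and pyruvate metabolism. Got2, the mitochondrial aspartate aminotransferase gene of the malate-aspartate shuttle, had a 3' untranslated summit at nt 2307 with a fold of 33.7 (26.4 to 42.5). Bsg encodes the membrane glycoprotein that brings the Slc16a1 transporter to the cell surface, and it had a coding summit at nt 895 with a fold of 18.0 (12.8 to 24.7).

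None of the pyruvate dehydrogenase kinase genes Pdk1, Pdk2, Pdk3 and Pdk4, and none of the succinate dehydrogenase genes Sdha, Sdhb, Sdhc and Sdhd, was listed.

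Of 14 genes of IL-3-dependent myeloid progenitors, 5 were listed. The lists of cell type genes were chosen with earlier results of these data known, so this count is not an independent check of the cell type. The folds of the listed myeloid genes were 53.6 for Spi1, 44.6 for Fcer1g, 10.4 for Csf2rb2, 9.02 for Csf2rb and 4.27 for Prtn3. Il3ra, Cebpa, Gata2, Kit, Mpo, Elane, Ctsg, Ms4a2 and Cd34 were not listed. Of 6 B cell and 6 T cell genes none was listed. Of 6 erythroid genes 1 was, Hba-a1 with a fold of 41.8, a gene with a duplicate of almost the same sequence. The labels call the cells lymphoblastocytes. With 6.71% of all protein-coding genes listed, lists this short can hold none whatever the cell type, so the lymphoid counts do not bear on that label. The list does not tell whether a missing marker is expressed.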

How the data were processed

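The data comprised 6 libraries (2 ac4C, 2 IgG and 2 input), for which 1 list of summits was analysed. Cutadapt, Bowtie2, MACS2 and build GRCm39 are named in the submitters' processing notes, without versions. Per the file headers, the authors give each summit a fold enrichment, which is a ratio, and a p-value and q-value as −log10. The gene, transcript and region were used as deposited. The planned fits per library were not run because no value belongs to 1 library. Depth is unknown. The pileup is the fold divided by its step, less 1. With it, the Poisson tail above the pileup gave the deposited −log10 p within 0.000474%. The step finder was tested on simulated data. Python 3.11.15, pandas 2.3.3 and scipy 1.17.1 were used. The RefSeq gene table (GRCm38.p6) served for names, gene types and pseudogenes named after a member; all 47 members matched. The members and lists were chosen with earlier results of these data known. Named were all members and those of the 67 other pathway genes with a summit, of which 2 are not reported here; Pdk and Sdh genes were named after their values were seen. No test was run over the members. Alternatives were stricter lists, 1 summit per gene, merged summits, mean folds and older symbols. No transcript sequence was used here.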

Additional observations from a re-analysis of the deposited data

How the results depend on the processing

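No paired analysis was possible because each summit has 1 value for the merged libraries; for the same reason no replicate could be left out. With only folds at or above the list median, 9 members were listed in place of 14, by construction. With the mean fold per gene, Pkm had 106, because its summits of 198 and 14.2 were averaged. With a −log10 q of at least 10, 10 members were listed (without Hk2, Pdha1, Pcx and Ogdh). Their median highest fold was 22.5, where that of the 1148 genes kept was 15.7. Older symbols added no member. The coding share ran from 64.3% to 75.0% over the 4 alternatives, with 72.2% when summits of 1 gene in 1 region counted as 1 if their position numbers, taken as they stand across isoforms, were within 100 nt of the next (this joined 3 Ldha summits and, being in different regions, not those of Pgls), and stayed inside the interval of the reported share. Ldha had a mean fold of 12.6, inside the interval of its highest summit. Depth limits the low end most: at a pileup of 11 the interval of the fold runs from 3.08 to 9.82.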

Other observations

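The gene table names at least 1 pseudogene after 7 of the 47 members, with 5 for Aldoa, 3 each for Gapdh and Ldha, 2 each for Pgk1 and Pgam1, and 1 each for Ldhb and G6pdx. Of these 7 members 1, Ldha, had a listed summit, and of the 40 others 13 had one, or 32.5% (exact Clopper-Pearson 95% interval 18.6% to 49.1%). The interval of the former share, 0.361% to 57.9%, overlaps it. Pseudogenes were matched by symbol alone, so copies under other names were not counted. The handling of reads with several matches is not stated, and the part of such copies in which members were listed was not tested.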
